A study of Mus musculus with 6 samples.

Results

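The Ikaros family genes Ikzf1, Ikzf2, Ikzf3, Ikzf4 and Ikzf5 were examined in maps of open chromatin from the mouse thymus. The members, 5 of 21631 protein-coding genes, were chosen by name, and the open regions from 50 kb before to 50 kb after each gene body were collected. These windows held 109 regions, of 73702 regions on chromosomes 1 to 19 and X. The assay was ATAC-seq, in which a transposase inserts adapters into accessible DNA, and the deposited files list the summit, or highest point, of every peak called in a library. There were 3 libraries labelled p53 AD/-, from mice with 1 AD allele of p53 (called dimeric in the series' design) over a null allele, and 3 labelled p53 -/-, here called null. All mice were 4 weeks of age on a background that was 50% BALB/C and 50% C57BL6, and both genotypes carry at least 1 null allele, so no library is wild type for p53. The labels do not say that the libraries came from separate animals, so p-values measure only the spread between these libraries, which may be technical.

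The Ikaros family encodes zinc finger transcription factors, most of them known from lymphocytes. In Ikaros and its closer relatives, N-terminal fingers bind DNA at sites with a GGGA core. C-terminal fingers pair the proteins with one another, so that members work as dimers or larger assemblies. Ikzf1 encodes Ikaros, which is needed for normal T cell development and whose loss leads to T cell leukaemia in mice. Ikzf2 encodes Helios, known from early and regulatory T cells. Ikzf3 encodes Aiolos, known from B cells and later thymocytes. Ikzf4 encodes Eos, known as a corepressor partner in regulatory T cells, and Ikzf5 encodes Pegasus, a more distant and widely expressed relative.

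Each library listed 44496 to 60160 summits. AD/- library 3 had the shortest list. It is named below at some, but not all, of the values that it decides, such as the lowest of a range. Read depth is unknown, and a region without a summit was only not called there. The deposited score of a summit was read as a q-value on the −log10 scale. It is given here as a percentile within its library, with 100 at the top. Of the thymocyte markers, 15 of 15 had a summit within 1 kb of a gene end in every library. Markers of other cells were also found: 4 of 10 B cell genes in every library, 5 to 6 of 7 regulatory T cell genes, 1 to 2 of 9 myeloid genes, 3 of 7 erythroid genes, 3 to 4 of 7 natural killer and gamma-delta T cell genes, 5 to 6 of 10 thymic epithelial genes in AD/- and 6 to 7 in null, and 4 to 5 of 10 endothelial and mesenchymal genes in AD/- and 3 to 4 in null. Their part in the results was not tested. Over all protein-coding genes, 11385 of 21631 (52.6%) had such a summit in all 6 libraries. Counts near or below that share do not show that a cell type was present. The B cell genes Cd79a, Ms4a1 and Pax5 and the regulatory T cell gene Foxp3 had none in any library. In whole thymus, fewer cells of a type and less accessibility per cell cannot be told apart.

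The sequences below are of promoters at or near which summits of 2 members lay. They were read from a RefSeq table of the build GRCm38.p6, which covers 2 of the 5 members, Ikzf1 and Ikzf5. Ikzf1 has a pair of start sites there, and the bases just before each are shown with every CpG in capitals, because CpG content separates them most. The first is chr11:11685675-11685924 and the second chr11:11689927-11690176, both on the plus strand. The last sequence, chr7:131410519-131410600 on the plus strand, is the whole gap between the gene models of Ikzf5 and Acadsb, and its 6 capitals span the summits of all 6 libraries.
Ikzf1, before the first start: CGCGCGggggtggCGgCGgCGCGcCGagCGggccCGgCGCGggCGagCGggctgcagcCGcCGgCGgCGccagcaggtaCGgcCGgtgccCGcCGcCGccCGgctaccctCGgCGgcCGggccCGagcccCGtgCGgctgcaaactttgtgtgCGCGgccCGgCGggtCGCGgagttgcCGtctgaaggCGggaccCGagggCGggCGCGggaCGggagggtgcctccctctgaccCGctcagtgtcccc
Ikzf1, before the second start: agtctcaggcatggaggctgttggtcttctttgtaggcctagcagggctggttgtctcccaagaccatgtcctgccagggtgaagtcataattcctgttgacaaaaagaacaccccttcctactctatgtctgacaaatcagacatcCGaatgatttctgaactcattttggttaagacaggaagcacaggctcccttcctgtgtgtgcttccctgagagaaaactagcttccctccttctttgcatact
Ikzf5 and Acadsb, between the genes: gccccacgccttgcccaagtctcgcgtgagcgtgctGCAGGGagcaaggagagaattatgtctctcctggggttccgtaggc

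The 250 bases before the first Ikzf1 start held 44 CpGs and were 82% G or C, more CpGs than 99.5% of the 32851 promoters in the table, whose median is 6. The 250 bases before the second start held 1 CpG and were 47.6% G or C. GC boxes (GGGCGG, counted on both strands) occurred 2 times before the first start and 0 times before the second, and 32.7% of all promoters have at least 1. The Ikaros core TGGGAA, the ETS string GGAAGT, the RUNX string TGTGGT, the E box CANNTG, the TATA string TATAAA and the CATG pair of a p53 site were not found on either strand in the 250 bases before either Ikzf1 start. Of all promoters, 21.6%, 19.7%, 14%, 66.2%, 12.4% and 0.49% have them, in that order. Such matches describe letters in a window and not binding. The 250 bases before the first Ikzf1 start held 0 summits, and those before the second held summits of 3 libraries.

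Both Ikzf1 starts had a summit nearby in all 6 libraries. The first start, at position 11685925, had its summits 157 to 248 bp downstream, at chr11:11686082-11686173. Their percentiles were 82, 83 and 78.2 in AD/- libraries 1, 2 and 3 and 80.4, 83 and 81.5 in null libraries 1, 2 and 3. The libraries of both genotypes thus overlapped. The second start, at 11690177, had summits at chr11:11690122-11690382, of which those of 3 libraries lay inside the 250 bases shown above. The percentiles there were lower and more spread, at 59.5, 68.1 and 45.4 in AD/- and 57.9, 63 and 70.2 in null. The CpG-rich start therefore had the higher percentile in every library. The annotated gene body of Ikzf1 begins further upstream, and only null library 2 had a summit within 1 kb of either end of it, a weak one past the far end at a percentile of 1.34.

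Ikzf1, on chromosome 11 from 11684962 to 11772930, was densely covered with open regions. Its window held 35, and 20 of them had a summit in all 6 libraries. Of these shared regions, 12 lay within the gene body and 6 between genes. The others were at the start of Fignl1, a AAA ATPase gene of DNA repair (percentiles 94.3 to 97.7), and inside Ddc, the gene of a decarboxylase that makes dopamine and serotonin (62 to 70.4).

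A set of 6 regions away from any gene end had percentiles of 74.5 to 83.6 over the libraries, beside 78.2 to 83 at the first Ikzf1 start. They lay 27.7, 16.9 and 5.84 kb before the gene body, 31.8 and 41.2 kb into it, and 15.9 kb past its end. The region 5.84 kb before the gene, chr11:11679122-11679126, had summits within 4 bp of each other in the 6 libraries. Its percentiles were 80.5, 82.1 and 74.5 in AD/- and 76.9, 82 and 79.4 in null. The region 41.2 kb inside, chr11:11726101-11726176, stood at 81.9, 82.7 and 76.8 in AD/- and 81.6, 79.5 and 82.3 in null. In both, AD/- library 3 was the lowest of the 6 and the other 5 libraries overlapped. These 6 regions had a median percentile of at least 75, out of 17 shared regions of the window that lay over 1 kb from any gene end or start (35.3%). Over all chromosomes, 4437 of 25460 such shared regions did (17.4%). The 5 windows together had 9 of 45 (20%), close to that share. By member it was 2 of 5 at Ikzf4 (40%), 1 of 14 at Ikzf3 (7.14%) and 0 of 9 at Ikzf2, while Ikzf5 had no such region. A high share was thus not a trait of the family.

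**Figure D1:**
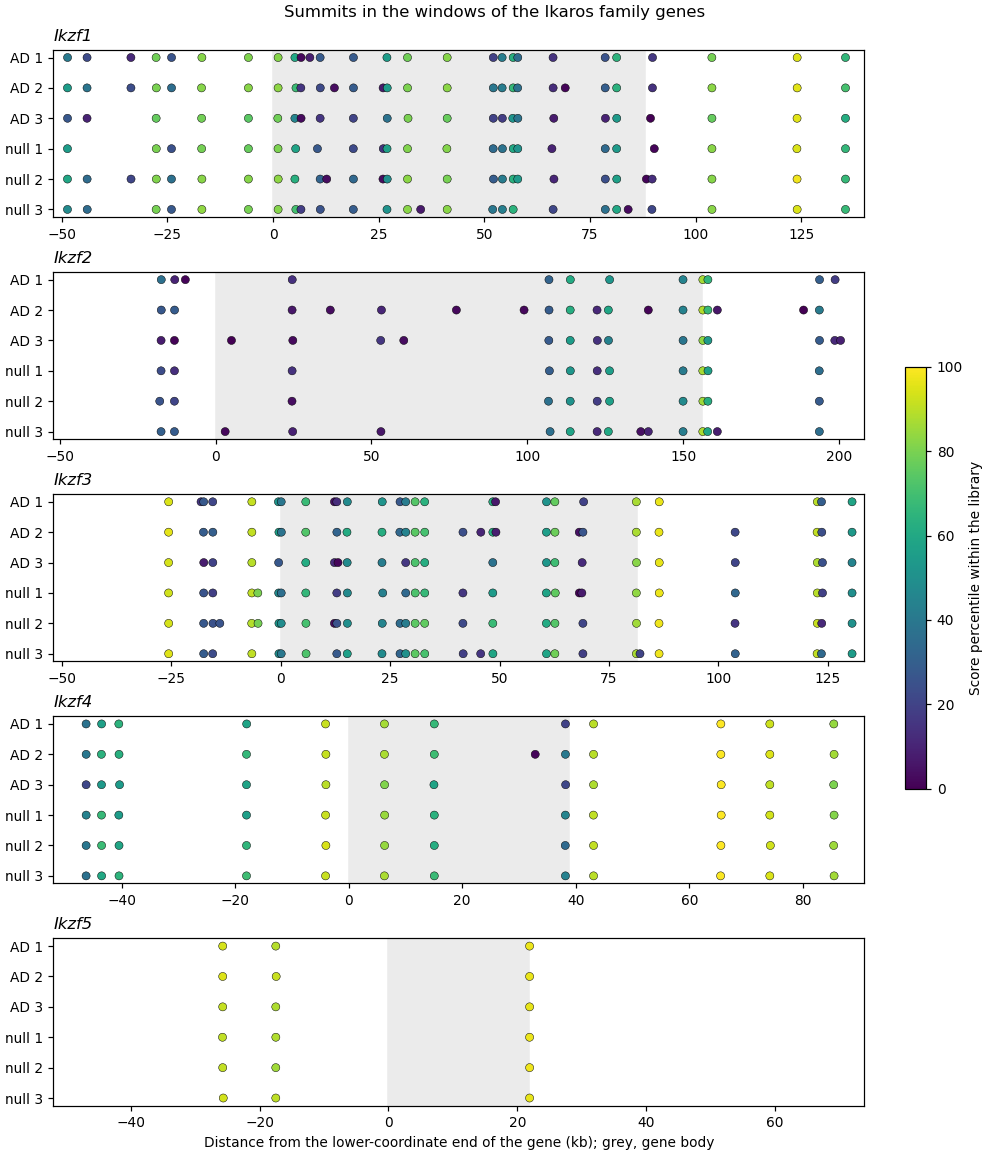
Position of every summit in the 5 windows, as distance in kb from the lower-coordinate end of the gene (x axis), with 1 row of points per library and the colour giving the score percentile. Columns of points across all 6 rows are the 66 shared regions, and scattered dark points, most often at Ikzf2, are summits of single libraries with low percentiles.

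Ikzf3, on chromosome 11 from 98464610 to 98546031, had the most shared regions of the family. Its window held 33 regions, 21 of them shared by all 6 libraries, with 12 of these in the gene body. The region 134 bp inside the upper end of the gene, chr11:98545897-98545931, ranked highest among those in the gene. Its percentiles were 86.8, 87.1 and 82.1 in AD/- and 83.5, 85.7 and 86.9 in null, which overlap. At the lower end, a summit at chr11:98464061-98464173 was found in all libraries at percentiles of 27.1 to 57.5, the lowest in AD/- library 3. A second one, 86 bp inside that end, was in every library but AD/- library 3. The table of starts has no entry for Ikzf2, Ikzf3 or Ikzf4, so the 2 ends of these genes are named by their coordinates.

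Within Ikzf3, the strongest regions after the upper end lay 62.7 and 30.7 kb from the lower end. Their percentiles were 68.8 to 78.1 and 71.7 to 74.9 over the 6 libraries. The highest regions of the window belonged to neighbouring genes. The start of Zpbp2, named for a sperm protein that binds the zona pellucida, stood at 96.5 to 97.6, that of Mien1 at 92.6 to 95.8, and that of Ormdl3, a regulator of sphingolipid synthesis, at 87.6 to 91.8.

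A region 5.24 kb below Ikzf3, singled out after its values were seen, was found in 2 libraries only and still ranked high in them. The summit was at 98459350 in null library 1 and at 98459400 in null library 2, with percentiles of 79.9 and 79.2. The other 4 libraries, 3 AD/- and 1 null, had no summit there. The nearest of theirs lay 1390 bp away, at the upper-coordinate end of the Mien1 gene body, a gene on the minus strand. That neighbouring region was found in all 6 libraries, at 88.7 to 91.3. The region in 2 libraries was the single one of the 43 found in fewer than 6 libraries whose median percentile was above 50. Peak widths were not used here, so whether the peak at Mien1 covers this position in the other 4 libraries was not tested.

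Ikzf2 had the sparsest chromatin of the 4 longer genes. The gene spans 156145 bp of chromosome 1, from 69531207 to 69687351, and no other protein-coding gene ends in its window. Of 25 regions, 10 were shared by all libraries and 5 of these lay in the gene body. The region 186 bp outside the upper end, chr1:69687523-69687551, had percentiles of 86.6, 88.4 and 83.4 in AD/- and 86.6, 85.3 and 87.3 in null. It was the only region of the window with a median percentile above 75. A second region 1.8 kb outside that end stood at 54.1 to 67.2. The shared regions inside the gene were gathered in its upper part, from 6.16 to 49.2 kb inside the upper end, apart from a weak one 24.6 kb from the lower end (2.73 to 14.3).

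Ikzf2 also had the most regions of a single library. There were 10, of which 4 were in AD/- library 2, 3 in AD/- library 3, 1 in AD/- library 1, and 2 in null library 3. All had low ranks, and over the 5 windows the 22 single-library regions had percentiles from 0.0997 to 27.5 with a median of 3.16. Over all chromosomes the median of such regions was 5.88. AD/- library 2 has the longest list of summits and gave 7 of the 22. Over all chromosomes, 12104 of 73702 regions (16.4%) were in a single library, and AD/- library 2 gave 3416 of these, also the most of any library. The split by library is therefore not a result about the family.

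Ikzf4, on chromosome 10 from 128630839 to 128669671, showed nearly the same regions in every library. Its window held 13, and 12 were shared. In the gene body, the region 6.3 kb from the lower end, chr10:128637139-128637179, had percentiles of 86.6, 87.4 and 81 in AD/- and 84.6, 84.1 and 87.2 in null. A weaker region lay 650 bp inside the upper end, next to Suox, the sulfite oxidase gene. Its percentiles were 19.9, 40.3 and 21.1 in AD/- and 45.1, 34.3 and 43.7 in null, so the genotypes overlapped through AD/- library 2. The strongest region of all 5 windows was at the start of Rab5b, the gene of an endosomal GTPase, at 99.5 to 99.8. The starts of Cdk2, the cell cycle kinase (90.4 to 94.8), Rps26, a ribosomal protein (89.6 to 93.8), and Suox (87.6 to 90.8) were also open in all libraries.

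Ikzf5, on chromosome 7 from 131388649 to 131410518, had no summit inside its gene body in any library. Its window held 3 regions, all at gene ends and all shared by the 6 libraries. The one at Ikzf5 lay in the 82 bases between Ikzf5 and Acadsb, the gene of an acyl-CoA dehydrogenase, at chr7:131410555-131410560. The table of starts places Ikzf5 on the minus strand at 131410478 and Acadsb on the plus strand at 131410601, so the genes point away from each other and the summits lie between the starts. The 6 summits fell within 6 bases of each other, the capitals in the sequence above. Percentiles were 97, 96.7 and 96.4 in AD/- and 96.9, 97.6 and 96.2 in null, the highest of any region at a member's own end. GC boxes occurred 4 times in the 250 bases before the Ikzf5 start. The other 2 regions, at the starts of Pstk, which acts in selenocysteine synthesis, and 2310057M21Rik, stood at 85.6 to 91.5 and 90.5 to 94.6.

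**Figure D2:**
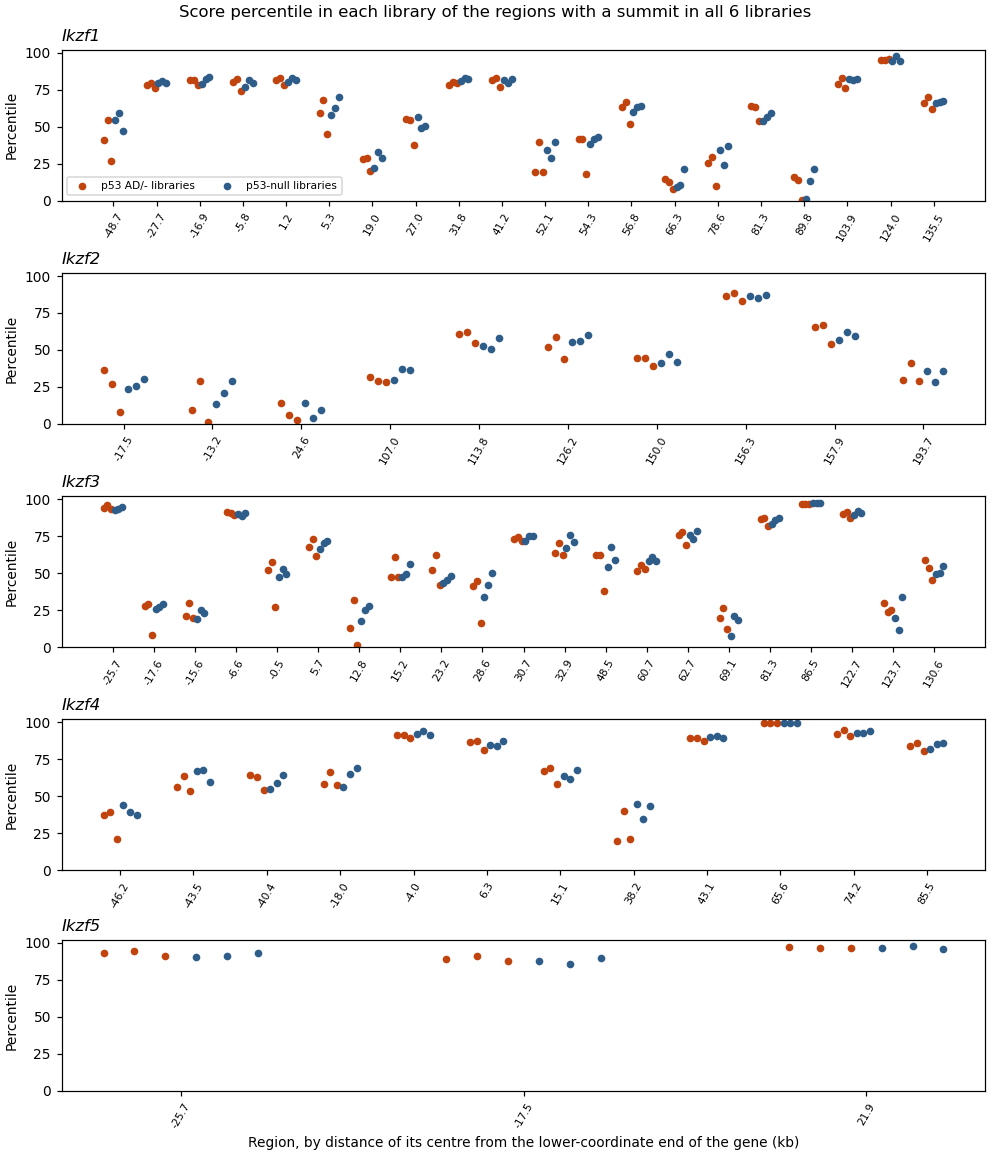
Score percentile (y axis) of each shared region in each library, with regions named on the x axis by the distance in kb of their centre from the lower-coordinate end of the gene. Orange points are AD/- libraries and blue points null libraries. The points of both genotypes lie close together at the strongest regions and spread more at weak ones.

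Compared with other genes, Ikzf1, Ikzf3 and Ikzf4 lay in dense open chromatin and Ikzf5 did not. Shared regions per 100 kb of window numbered 11.6 at Ikzf3, 10.6 at Ikzf1, 8.64 at Ikzf4, 3.9 at Ikzf2 and 2.46 at Ikzf5. The median over 21631 protein-coding genes was 2.71. A lower density was found at 98.1% of these genes for Ikzf3, 96.9% for Ikzf1, 92.4% for Ikzf4, 62.9% for Ikzf2 and 47.1% for Ikzf5. Among genes with bodies of similar length, the median number of shared regions was 4 in each case. Fewer than at the member were found at 99.3% of 1479 such genes for Ikzf3, 99.1% of 1415 for Ikzf1, 95% of 2251 for Ikzf4, 79.1% of 813 for Ikzf2 and 32% of 2688 for Ikzf5. These ranks describe single genes, and windows of neighbouring genes overlap. At Ikzf4 most of the shared regions belonged to its neighbours, with 3 of 12 in its own body.

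**Figure D3:**
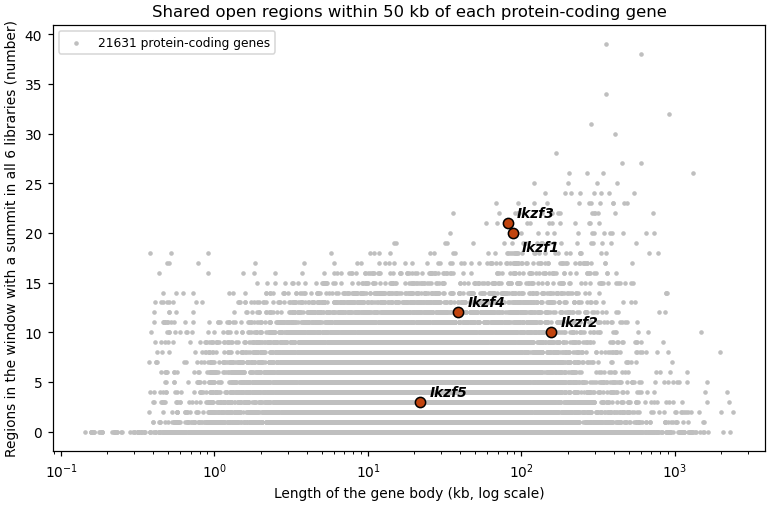
Number of shared regions in the window (y axis) against the length of the gene body in kb (x axis, log scale) for 21631 protein-coding genes in grey and the 5 Ikaros family genes in orange. Ikzf3 with 21 and Ikzf1 with 20 sit near the upper edge for genes of their length, and Ikzf5 with 3 lies in the middle.

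The genes most like each member in their summit numbers over the 6 libraries, by the sum of absolute differences, were looked up among genes of similar length outside the windows. Sema4d was nearest to Ikzf1 (a sum of 7) and had 26, 29 and 23 summits in AD/- and 25, 29 and 29 in null. Gtf2i (6) and Fkbp5 (7) were nearest to Ikzf3, and Atf6, Gng12 and Osbpl8 (each 11) to Ikzf2. Itga3 matched Ikzf4 exactly in all 6 libraries. For Ikzf5, 26 genes matched exactly and none is named. Gene length and list length shape these numbers, and they are a description of 6 values only.

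The comparison of the study is between AD/- and null, and the first measure was the number of summits in each window. Ikzf1 had 27, 29 and 24 summits in AD/- and 24, 28 and 26 in null. The means were 26.7 ± 2.52 and 26 ± 2 (SD, n = 3 each; exact permutation p = 0.8, two-sided). Ikzf2 had 12, 18 and 16 in AD/- and 11, 11 and 16 in null, with means of 15.3 ± 3.06 and 12.7 ± 2.89 (exact permutation p = 0.3, n = 3 each). The genotypes overlapped at both genes. With scores of at least 5 the Ikzf2 difference turned, from 2.67 to -1, and it was 1.33 without AD/- library 2 and 4.33 without AD/- library 1 or without null library 3. The Ikzf1 difference of 0.667 turned as well, to -0.333 with scores of at least 5 or without null library 1, -0.667 with windows of 100 kb and -0.5 without AD/- library 2.

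Ikzf3 had 26, 28 and 23 summits in AD/- and 26, 28 and 27 in null, with means of 25.7 ± 2.52 and 27 ± 1 (exact permutation p = 0.7, n = 3 each). Without AD/- library 3 the means were equal. Ikzf4 had 12, 13 and 12 in AD/- and 12 in each null library (exact permutation p = 1, n = 3 each). Ikzf5 had 3 summits in every library. The values of the genotypes overlapped at every member, and 3 against 3 cannot give an exact permutation p below 0.10.

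**Figure D4:**
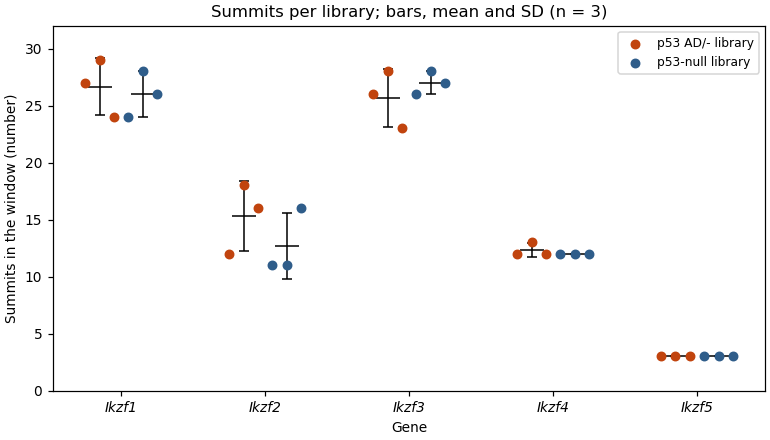
Number of summits in the window of each gene (y axis), with orange points for AD/- libraries, blue points for null libraries, and bars for mean and SD (n = 3). The points of both genotypes overlap at every gene, from 3 summits in each library at Ikzf5 to 23 to 29 at Ikzf1 and Ikzf3.

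The second measure was whether a region was present in 1 genotype alone. None of the 109 regions was found in every AD/- library (3 of 3) and in no null library, where 132 regions of the whole series did (0.179%). None was present in all 3 null libraries and absent from AD/-, where 308 regions did so (0.418%). Against these background shares, a count of 0 among 109 regions is not a result about the family. The nearest to it were 2 regions with summits in 2 AD/- libraries and no null library, and the region below Ikzf3 in 2 null libraries. The 2 AD/- regions lay 42.6 kb above Ikzf2 (percentiles 17.6 and 11.4) and 49.1 kb inside the lower end of Ikzf3 (6.38 and 8.18). Over all chromosomes, 978 regions (1.33%) had summits in 2 AD/- libraries alone and 1437 (1.95%) in 2 null libraries alone, so 2 and 1 of 109 (1.83% and 0.917%) are not a result about the family either. At the Ikzf3 region of AD/- libraries 1 and 2, the nearest summits of the other libraries lay 650 to 676 bp away. Leaving out AD/- library 2 or AD/- library 3 made 1 of these regions specific to AD/-. Leaving out null library 3 did so for a weak region 6.61 kb inside the lower end of Ikzf1. Leaving out null library 3 or AD/- library 2 likewise gave 1 region specific to null, respectively below Ikzf3 and 41.6 kb inside its lower end. Over all chromosomes the counts with 1 library left out were 232 to 782 for AD/- and 405 to 1293 for null.

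Presence in all libraries was common. Of the 109 regions, 66 (60.6%) were in all 6 libraries, 7 in 5, 14 in 2 to 4 and 22 (20.2%) in 1 alone, compared with 52.1% in all 6 and 16.4% in 1 over all chromosomes. AD/- library 3 was the missing one in 2 of the 7 regions found in 5 libraries, and in 5582 of 7628 over all chromosomes. AD/- library 1 and null library 1 were missing in 2 of the 7 each and null library 3 in 1.

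The third measure was the rank of a shared region's score. Ranks were taken among the same 38374 shared regions in every library, so that the length of a list does not enter the ranking itself. List length can still enter the choice of shared regions. Over all chromosomes, AD/- library 3 was the missing one in 5582 of 7628 regions found in 5 libraries. The ranks were tested with limma on an inverse-normal scale over all of the shared regions. No region passed an adjusted p of 0.05, neither among the 66 of the family nor among all 38374 (0%). An unadjusted p under 0.05 was found for 4 of 66 (6.06%), compared with 1901 of all shared regions (4.95%). The number in the family was 7 without AD/- library 2 or without null library 3, and 2 without null library 1. The median difference, AD/- minus null, was -0.0077 for the family and -0.0027 for all shared regions, 31 being positive and 35 negative. The 95% interval reached 0.23 to either side at the median and 0.15 to 1.16 over the 66 regions, so small shifts at weak regions were not detectable.

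The 4 regions with the lowest p all ranked higher in AD/-, by amounts that did not pass the adjusted test. They were picked on these same ranks, so separated genotypes and intervals that exclude 0 are not further support. One region was 23.2 kb inside the lower end of Ikzf3, chr11:98487736-98487913. Its percentile among shared regions was 33.5, 41.9 and 34.3 in AD/- and 23.7, 24.3 and 24.4 in null. All AD/- values lay above all null values (exact permutation p = 0.1, which is the lower limit with n = 3 each). The limma difference was 0.36 (95% interval 0.16 to 0.55, not adjusted) with an adjusted p of 0.901. Within the whole lists its percentiles were 51.9, 62.2 and 41.9 against 43, 45 and 48, where AD/- library 3 fell below the null libraries.

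The others were 42.4 kb inside the upper end of Ikzf2, 6.6 kb inside the upper end of Ikzf1, and 1.8 kb outside the upper end of Ikzf2. At the first Ikzf2 region, chr1:69644989-69645032, the percentiles among shared regions were 45.4, 41.9 and 48.5 in AD/- and 34.6, 31.3 and 37.6 in null. At the Ikzf1 region, chr11:11766285-11766312, they were 50.1, 44.1 and 47.7 against 36.5, 38.7 and 39.9. At the second Ikzf2 region, chr1:69689072-69689193, they were 51.5, 49.3 and 47.7 against 40, 46.4 and 39.5. The genotypes did not overlap in any of the 3, with limma differences of 0.28, 0.23 and 0.19 and adjusted p of 0.944, 0.946 and 0.979. In the whole lists the genotypes overlapped at all 4 regions, each time only through AD/- library 3, which has the shortest list. AD/- libraries 1 and 2 lay above every null library there. Percentiles in whole lists depend on list length, and its part in this overlap was not tested. Ranked within the whole lists, 0 of the 66 had an unadjusted p under 0.05 by limma.

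In all, the ranks of the genotypes did not overlap in 8 of 66 shared regions. AD/- lay above null in 6 (9.09%, compared with 5.05% of all shared regions) and below in 2 (3.03%, compared with 4.65%). The other regions with AD/- above were 15.1 kb inside the lower end of Ikzf4 and at 2310057M21Rik beside Ikzf5. Those with AD/- below were 29.9 kb inside the upper end of Ikzf2 and at the start of Zpbp2. The genotypes overlapped at the first Ikzf1 start and at the Ikzf5 and Acadsb gap. The limma differences were 0.03 ± 0.06 (SE) at the first Ikzf1 start and -0.01 ± 0.08 at the gap.

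**Figure D5:**
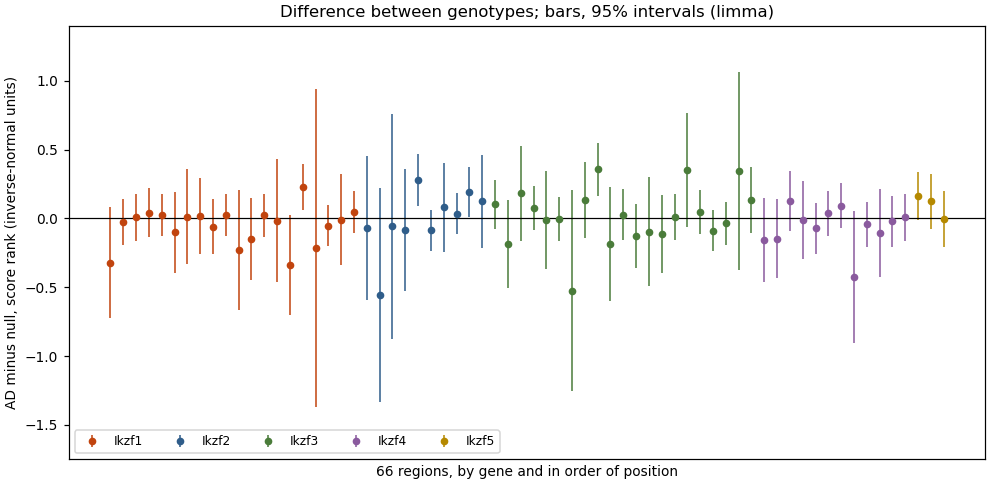
Difference in score rank, AD/- minus null, in inverse-normal units (y axis) with its 95% interval from limma, for the 66 shared regions in order of gene and position (x axis). Points scatter on both sides of 0, and 4 of the 66 intervals exclude it, all above 0, before adjustment.

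Partners of the Ikaros proteins and genes reported as their targets were looked at in the same way. The partner list held 27 genes of the NuRD and Sin3 corepressor complexes, CtBP proteins, the SWI/SNF remodeller, the cereblon ubiquitin ligase, casein kinase 2 and protein phosphatase 1. Open gene ends, with a summit within 1 kb in each of the 6 libraries, were found for 25 of them (92.6%), compared with 52.6% of all protein-coding genes. The exceptions, named after their values were seen, were the corepressor gene Ctbp2 with 5 libraries and the cullin gene Cul4b with 0. The measure uses the ends of the annotated gene body and can miss starts. By it Ikzf1 had an open end in 1 library only, though both of its starts had a summit nearby in all 6. A low count therefore does not show a closed promoter. Of the 346 regions in their windows, 0 were specific to AD/- and 0 to null, beside 0.179% and 0.418% of all regions. In 0 of 209 shared regions the limma test was passed, and 8 (3.83%) had an unadjusted p under 0.05, beside 4.95% of all shared regions.

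The target list held 24 genes reported as Ikaros targets, of lymphocyte development and of cell growth, survival and the cell cycle. By the same measure 19 of them (79.2%) had open ends, among them Dntt, Rag1, Ptcra, Cd4 and Cd8a of thymocytes. These names and the next 5 were chosen after their values were seen. The pre-B cell genes Igll1 and Vpreb1, the cytokine gene Il2, the cell cycle inhibitor gene Cdkn1a and the T lineage regulator gene Gata3 had none at an annotated end. Of 402 regions, 2 were specific to AD/-, near Il2ra and inside Gata3, and 2 to null, inside Notch1 and near Il7r (0.498% each, compared with 0.179% and 0.418% of all regions). Shares from counts this small are not a result about the list. In 0 of 225 shared regions the limma test was passed, and 9 (4%) had an unadjusted p under 0.05, against the 4.95% of all shared regions. The Il2ra region had the highest rank (lowest percentile 69.1, nearest null summit 1139 bp away), and the 2 null regions had no AD/- summit within 4082 bp.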

How the data were processed

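ATAC-seq of thymus was available as 1 summit list per library (6 libraries, 3 per genotype, grouped by the genotype label and numbered in deposition order). The deposited score of each summit was taken as the −log10 of a q-value, since scores start at 1.30 to 1.39 and a q-value of 0.05 is 1.30. The submitters' processing notes name MACS2 2.1.2, Picard 2.9.0, Bowtie2 2.3.4.2, Trim Galore 0.4.5 and the build GRCm38. Their roles and settings, read shifting for the transposase and duplicate handling are not given in the sources used here.

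Summits were extended by 250 bp per side and overlapping windows of all libraries merged (Python 3.11.15, pandas 2.3.3). Gene bodies came from a RefSeq table on GRCm38.p6, start sites and promoter sequences from a second one. A region's percentile is that of its best summit. Shared regions were ranked within each library and tested with limma 3.58.1 in R 4.3.3, with Benjamini-Hochberg adjustment over all 38374, after a test on simulated data. Summit numbers were tested by exact permutation. Single regions cannot pass a presence test with 3 against 3. The 5 members, the neighbours with an end in a window, the nearest genes in summit number and list members with a genotype-specific region were named by rule. The members and lists were chosen with earlier results of these data known. Alternatives were extensions of 100 and 500 bp, windows of 10 and 100 kb, scores of at least 5, equal list lengths, close summits counted once, a looser rule, other rank fits, and each library left out. Protein sequences were not used here.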

Additional observations from a re-analysis of the deposited data

How the results depend on the processing

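Summit lists carry no read counts, so depth is unknown and limits what absence means. No paired analysis was possible because the labels carry no replicate numbers. The number of regions in the windows was 76 with windows of 10 kb, 160 with windows of 100 kb, and 86 to 116 under the other alternatives run. No region of the family passed limma's adjusted p of 0.05 under any of the 16 alternatives, and over all chromosomes 1 did, with scores of at least 5. The adjusted p of the 4 named regions ranged from 0.613 to 1, and all 4 kept their direction.

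Under the looser rule of 2 or 3 libraries against 0, regions specific to AD/- in the windows numbered 2 and to null 1, and over all chromosomes 1110 and 1745. Windows of 100 kb gave 1 of each. Leaving out 1 library gave 0 to 1 for either genotype in the windows, with 1 AD/- region without AD/- library 2, AD/- library 3 or null library 3, and 1 null region without AD/- library 2 or null library 3. Over all chromosomes it gave 232 to 782 for AD/- and 405 to 1293 for null, since a trio becomes a pair. AD/- regions fell to 83 with an extension of 500 bp and 66 with scores of at least 5, and null regions to 202 with lists of equal length.

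The difference in summit number, AD/- minus null, changed sign at Ikzf1 with scores of at least 5 (-0.333) and windows of 100 kb (-0.667), and without single libraries it ranged from -0.5 (without AD/- library 2; -0.333 without null library 1) to 2. At Ikzf2 it was -1 with scores of at least 5, and 1.33 (without AD/- library 2) to 4.33 (without AD/- library 1 or null library 3) when 1 library was left out. At Ikzf3 it ranged from -2.5 to 0 (without AD/- library 3) when 1 library was left out. At Ikzf4 it was 0 with scores of at least 5 and with lists of equal length, 1.67 with windows of 100 kb, and 0 (without AD/- library 2) to 0.5 when 1 library was left out.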
